A study of Mus musculus with 5 samples.

Results

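The transcripts described here encode the translation initiation and elongation factors of the mouse, the proteins that start protein synthesis on a messenger RNA and move the ribosome along it. They were taken by symbol, as every gene of the deposited count table whose name begins with Eif1 to Eif6 or with Eef1 or Eef2, leaving out the eIF2 kinases (Eif2ak). The rule found 56 of the 11194 genes in the table. RefSeq lists 67 protein-coding genes of this name pattern. Of these, 2 are in the table under the older symbols Mettl10 and Mettl13, which the rule does not take, and 9 are not analysed here, among them Eef1a2, Eif3j2, Eif5a2 and Eif4ebp3.

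RNA that came down with an anti-Staufen1 antibody was sequenced from skeletal muscle stem cells, the resident precursors of muscle fibres, described by the series as quiescent. Staufen1 recognises double-stranded stretches of RNA. The labels give 3 libraries from wild-type mice (Stau+/+) and 2 from Staufen knockout mice (Stau-/-), with no strain, age or sex and no word on separate animals, so p-values reflect the spread among the libraries alone, and that spread may be technical. All 5 libraries are immunoprecipitates and no input RNA was analysed here. A transcript can therefore differ through its amount in the cells or through its recovery by the antibody. In such bulk samples, fewer cells of a type and less RNA per cell cannot be told apart.

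Initiation begins when eIF1 and eIF1A bind the small ribosomal subunit, eIF2 brings the initiator tRNA, and eIF3 holds the assembly together. The cap at the start of the messenger is bound by eIF4E, which joins the scaffold eIF4G and the helicase eIF4A in the eIF4F complex. The 4E-BP proteins block eIF4E, and eIF2B recharges eIF2 with GTP. During elongation, eEF1A delivers aminoacyl-tRNAs, the eEF1B subunits reload eEF1A with GTP, and eEF2 moves the ribosome. Quiescent muscle stem cells are known for low protein synthesis, held down in part through phosphorylated eIF2.

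Library totals ran from 33846391 to 105473455 counts in wild type and were 9370244 and 3091302 in knockout 1 and 2, so depth and genotype cannot be told apart. Stau1 itself had 116.4 ± 11.4 CPM (SD, n = 3) in wild type and 109.9 ± 1.19 CPM (SD, n = 2) in knockout, where CPM is the count scaled to library totals of 1e+06 with TMM factors. Stau1 RNA was thus not lower in the libraries labelled knockout (edgeR adjusted p = 0.847), and wild type and knockout below mean the labels. Muscle stem cell markers, 10 of 10 of which had a row, summed to between 4431.5 and 5102.2 CPM in wild type and to 2962.9 and 3017.7 CPM in knockout. Of these, 2 passed the test as higher in wild type, and Pax7, the defining marker, overlapped between groups at 238.7 ± 26.1 CPM (SD, n = 3) and 216.2 ± 50.2 CPM (SD, n = 2). Endothelial markers (8 of 8 with a row) summed to between 1072.2 and 1432.8 CPM against 2608.9 and 2414.8 CPM, and 5 of them passed as higher in knockout. Fast fibre markers (10 of 12 with a row) reached 2716.1 CPM in knockout 2 and lay between 438.7 and 652.4 CPM in the other 4 libraries. Of these markers, 1 passed as higher in knockout. Fibro-adipogenic markers (6 of 6) lay between 1864.1 and 2725.1 CPM against 1342.5 and 1404.8 CPM, but single genes went both ways, with 2 called higher in wild type and 1 in knockout. Macrophage markers (4 of 5 with a row) lay between 28.6 and 52.7 CPM in all libraries, and 0 passed. Red blood cell markers (3 of 5) lay between 148.4 and 203.2 CPM against 305.1 and 489 CPM, and 2 passed as higher in knockout. Myelinating glia markers (5 of 5) lay between 384.3 and 505.6 CPM against 566.7 and 471.5 CPM, and 1 passed as higher in knockout. The part of these differences in the results below was not tested.

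Messengers of translation factors are textbook examples of transcripts that start with a pyrimidine tract, the terminal oligopyrimidine element through which mTORC1 controls their translation. RefSeq start sites were at hand for 44 of the 56 genes. A run of at least 8 pyrimidines lay within 15 bases on either side of a start in 9 of the 44, or 20.5%, against 15.4% of the 8663 genes of the table with a start and 13.9% of all 27025 RefSeq genes with one. The windows below (RefSeq, build GRCm38.p6, 5′ to 3′, with the pyrimidine run in capitals) show 2 eIF3 subunits and the X- and Y-linked copies of the eIF2 gamma subunit, which hold a run, and 3 elongation factor genes on which the results turn. The window of Eef1a1 holds a run, and those of Eef1b2 and Eef2 do not. An annotated start can lie some bases from the start in use. Thus, a window without a run says only that these letters are not in it. Eef1b2, Eef2 and Eif4b, for example, lack a run here but count among the factors known to carry the tract. Likewise, a run in a window, as at Eef1a1, is not shown to be the tract of the transcript. A run can also lie wholly before the start, as at an annotated start of Eif4e. The shares are therefore no count of terminal pyrimidine tracts.
Eif3f, chr7:108934400-108934429, plus strand: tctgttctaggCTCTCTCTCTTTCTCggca
Eif3l, chr15:79075208-79075237, plus strand: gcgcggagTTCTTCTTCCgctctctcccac
Eif2s3x, chrX:94212637-94212666, minus strand: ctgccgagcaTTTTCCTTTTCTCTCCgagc
Eif2s3y, chrY:1010580-1010609, plus strand: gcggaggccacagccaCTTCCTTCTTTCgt
Eef1a1, chr9:78481710-78481739, minus strand: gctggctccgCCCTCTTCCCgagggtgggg
Eef1b2, chr1:63176816-63176845, plus strand: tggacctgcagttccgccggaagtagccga
Eef2, chr10:81176616-81176645, plus strand: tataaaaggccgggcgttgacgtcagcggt

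The 56 transcripts took 2.19%, 2.06% and 2.28% of all counts in wild type 1 to 3 and 1.97% and 1.99% in knockout 1 and 2. Levels between genes are compared per kilobase of the gene length in the table, in which every annotated exon counts, so genes with rarely used exons read low. On this scale Eef1a1 was highest in wild type at 1480 ± 114 CPM per kilobase (SD, n = 3). Eef2 followed at 1310 ± 93.5 and Eif1 at 1180 ± 59 CPM per kilobase, and the SDs of neighbours in this order overlap. Eif5a, whose protein eases the joining of difficult peptide bonds, was 4th at 668 ± 104 CPM per kilobase. Eef2k, the kinase that switches eEF2 off, was lowest at 2.04 ± 0.389 CPM per kilobase, and Eif2d and Eif2s3x lay next to it at 2.33 and 2.35.

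**Figure D1:**
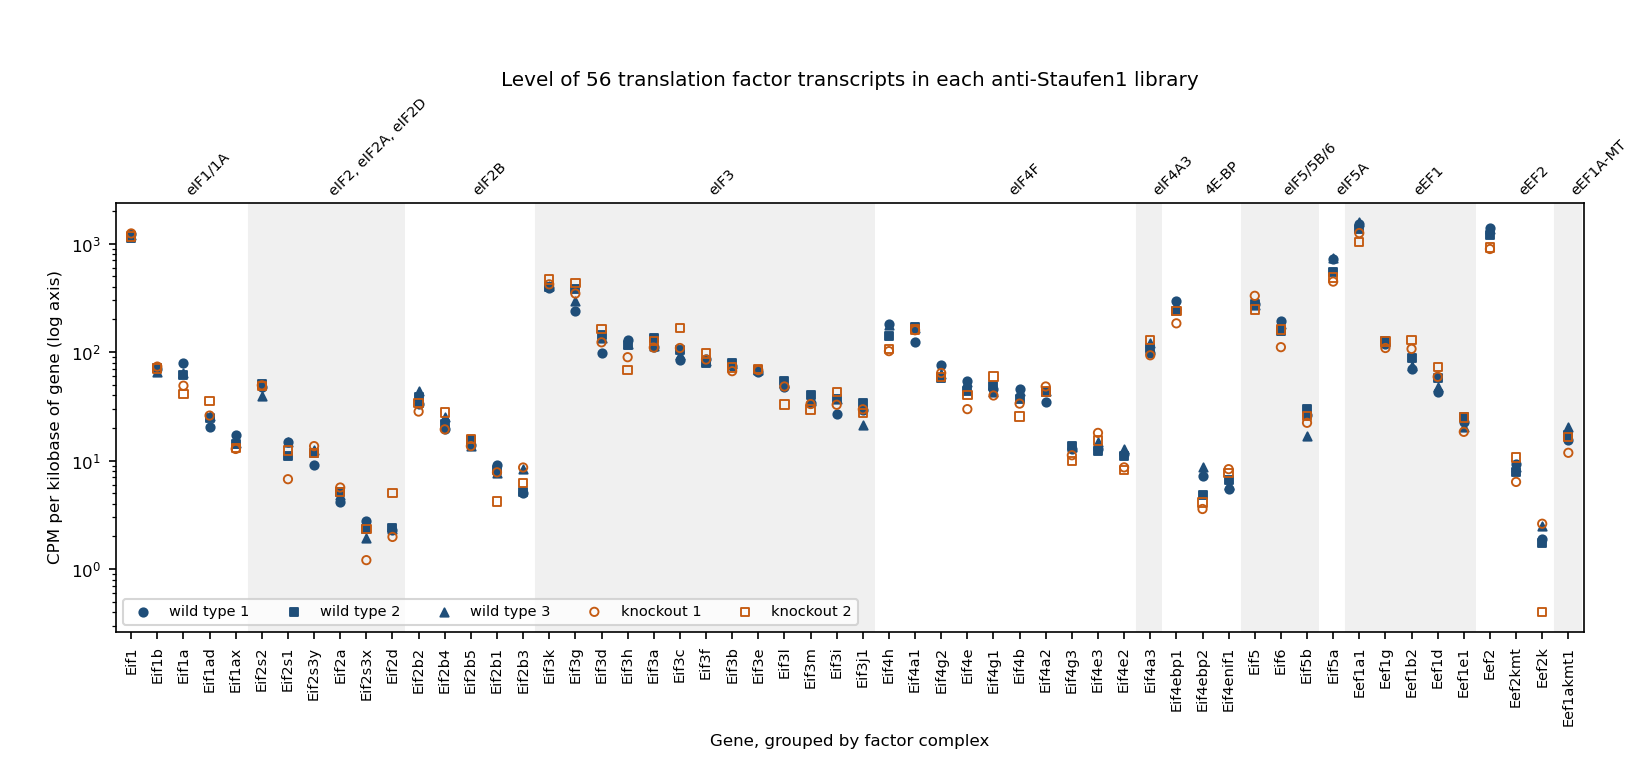
Level of each of the 56 transcripts in CPM per kilobase (log axis), grouped by factor complex and ordered by wild type mean within it; filled symbols are the 3 wild type libraries and open symbols the 2 knockout libraries. Levels run from 2.04 CPM per kilobase for Eef2k to 1480 for Eef1a1 in wild type, and most genes show 5 symbols close together, whereas knockout 2 lies far below the others for Eef2k.

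Messengers of subunits of 1 complex differed widely in level per kilobase. Over the 13 eIF3 genes, the wild type mean ran from 28.1 CPM per kilobase for Eif3j1 to 397 for Eif3k, a 14.1-fold range. Before division by length, Eif3j1 had 163.8 CPM (5830 bases) and Eif3k 307.1 CPM (773 bases), so length makes much of the gap between this pair. In CPM the 13 genes still ran widely, from 94.8 for Eif3m to 621 for Eif3a. Over the 5 eIF2B genes the mean per kilobase ran from 6.16 for Eif2b3 to 38.6 for Eif2b2, a 6.28-fold range. Before division, Eif2b3 had 40.2 CPM (6520 bases) and Eif2b2 72.8 CPM (1885 bases), again a narrower gap than per kilobase. The lowest of the 5 in CPM was Eif2b1 at 21.3. Among the eIF2 subunits, the beta subunit gene Eif2s2 had 45.7 ± 6.14 CPM per kilobase and the alpha subunit gene Eif2s1, whose product is the target of the stress kinases, had 13.5 ± 2.10 (SD, n = 3). The gamma subunit is encoded on both sex chromosomes, and Eif2s3y had 11.1 ± 1.78 CPM per kilobase against 2.35 ± 0.420 for Eif2s3x. Some reads of this related pair may have been split or dropped in counting, though how alike the transcripts are was not examined. The separate levels of these genes are thus uncertain, as is that of Eef1a1, which has many processed copies in the genome. Reads on the Y chromosome gene were counted in all 5 libraries, with 37.9, 48.7 and 52.1 CPM in wild type 1 to 3 and 56.6 and 48.7 CPM in knockout 1 and 2.

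None of the 56 transcripts passed the test between wild type and knockout. With edgeR's quasi-likelihood test and an adjusted p below 0.05, 0 of 56 were called, where 2.05% of all 11194 genes were, 1.05% toward wild type and 1% toward knockout. 11 had an unadjusted p under 0.05, or 19.6%, against 20.4% of all genes. 8 of the 11 were higher in wild type (14.3% of members against 10.4% of all genes) and 3 in knockout (5.36% against 9.99%). The libraries of the groups did not overlap for 21 members, or 37.5% against 38.4% of all genes. Of these, 14 had every wild type library above both knockout libraries (25% of members against 20.4% of genes), and 7 the reverse (12.5% against 18.1%). Counted without regard to direction, the shares over members lay near those over all genes. The median log2 fold change, wild type over knockout, was 0.02 over the members and 0 over all genes, and the members ran from -0.60 for Eef1b2 to 0.88 for Eif4ebp2.

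The differences were bounded more tightly than over all genes. For 45 of 56 members (80.4%) the 95% interval of the edgeR difference lay within a 2-fold change either way, against 48.8% of all genes. The members were also more abundant, with a median of 139 CPM against 25.9 CPM over all genes, and their median standard error on the log2 scale was 0.20 against 0.29. Wild type replicates differed by a median SD of 0.163 on the log2 CPM scale over members and 0.247 over all genes. By complex, the interval lay within 2-fold for 12 of 13 eIF3 genes and 4 of 5 eIF2B genes. It did so for 9 of 10 genes of eIF4F with cofactors and relatives, and 3 of 6 of eIF2 with eIF2A and eIF2D.

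**Figure D2:**
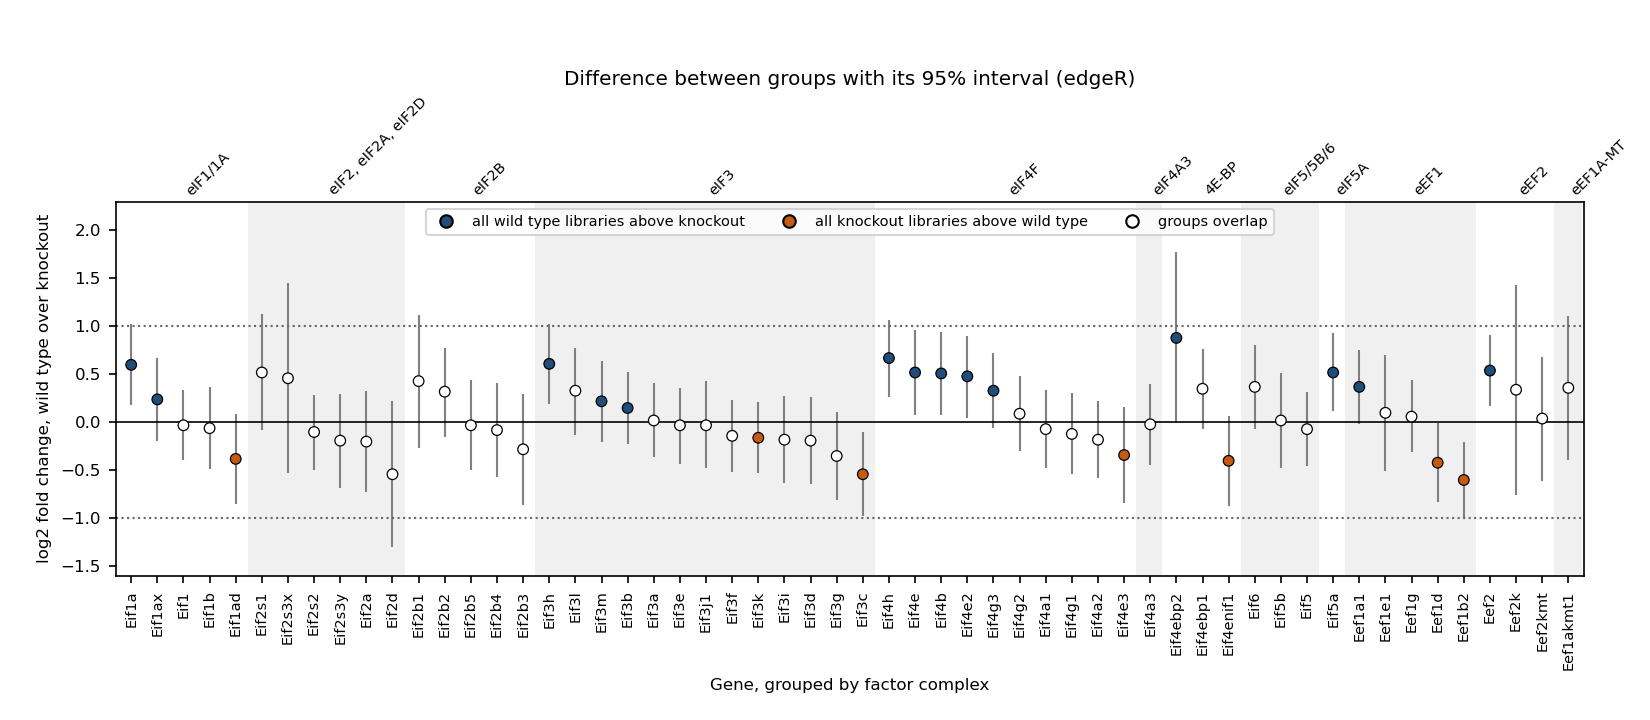
Log2 fold change of each of the 56 transcripts, wild type over knockout, with its 95% interval from the edgeR fit; filled points mark genes whose libraries did not overlap between groups, dotted lines mark a 2-fold change. 45 of 56 intervals lie between the dotted lines, and the widest belong to low transcripts such as Eef2k and Eif2s3x.

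Other tools set the line elsewhere. DESeq2 called 4 members, with 7.95% of all genes called, 3.87% toward wild type and 4.08% toward knockout. Eif4h (adjusted p = 0.0162), Eef2 (0.0284) and Eif3h (0.0469) were called as higher in wild type, and Eef1b2 (0.0269) as higher in knockout. limma-voom called 0 members, with 0.197% of all genes called, and 9 members had an unadjusted p under 0.05, or 16.1% against 12.4% of all genes. With edgeR and wild type 2 left out, Eif4h alone was called (log2 fold change 0.77, adjusted p = 0.0382), with 3.11% of all genes called.

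In the group of eIF1 and eIF1A, which find the start codon, the most abundant transcript, Eif1, overlapped between groups. Eif1 had 2584.7, 2339.4 and 2491.6 CPM in wild type 1 to 3 and 2596.0 and 2439.0 CPM in knockout 1 and 2. The difference was -0.03 on the log2 scale (95% interval -0.39 to 0.34). Eif1a, a gene for eIF1A, had 227.0, 178.2 and 185.8 CPM against 141.2 and 118.3 CPM, with all wild type libraries above both knockout libraries. Its log2 fold change was 0.60 (edgeR adjusted p = 0.108, SE 0.20). The X-linked eIF1A gene Eif1ax stood at 80.3 ± 8.54 CPM in wild type (SD, n = 3) and at 67.9 ± 0.748 CPM in knockout (SD, n = 2), without overlap and with an edgeR adjusted p of 0.534.

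None of the genes of eIF2, eIF2A, eIF2D and eIF2B separated the groups. Eif2s1 had 50.1, 37.6 and 50.0 CPM in wild type and 22.9 and 42.3 CPM in knockout, so knockout 2 lay within the wild type range. Its log2 fold change was 0.52 (edgeR adjusted p = 0.321, SE 0.28), and it was 0.12 without knockout 1 and 1.00 without knockout 2. Eif2s2 lay between 263.5 and 344.8 CPM in wild type and at 334.0 and 328.6 CPM in knockout, with an interval of -0.50 to 0.29. Among the eIF2B genes, which encode the exchange factor of eIF2, log2 fold changes ran from -0.28 for Eif2b3 to 0.43 for Eif2b1, with a smallest edgeR adjusted p of 0.443 for Eif2b2. Both ends rest on single libraries. Eif2b1 was at 0.98 without knockout 1 and 0.08 without knockout 2, and Eif2b3 at -0.01 and -0.49, with -0.16 without wild type 1 or wild type 2 and -0.57 without wild type 3. Eif2b2, also the highest of these in level, had 62.2, 73.3 and 83 CPM against 53.3 and 64.3 CPM, a difference of 0.32 that was 0.18 without knockout 1 and 0.20 without wild type 3. For the gamma subunit, Eif2s3x had 10.5, 9 and 7.31 CPM against 4.61 and 8.91 CPM, on 28 counts in knockout 2, and its interval of -0.53 to 1.45 is wide. Its difference of 0.46 was 0.01 without knockout 1 and 0.96 without knockout 2. Eif2d had 16.8, 17.5 and 17.3 CPM in wild type and 14.6 and 36.9 CPM in knockout, so knockout 2 alone stood apart. Its log2 fold change of -0.54 was -1.1 without knockout 1 and 0.24 without knockout 2. Exon blocks of Rassf5 cover 1.1% of the exon length of Eif2d, and the whole RefSeq span of Rassf5, introns included, covers 46.6%. The strand setting of the counting is not given in the sources used here, so overlapping genes on either strand cannot be told apart.

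The eIF3 genes lay in both directions. Of 13, 5 had a positive and 8 a negative log2 fold change, with a median of -0.03, and 0 passed the edgeR test. Eif3h had 161.3, 146.9 and 148.8 CPM in wild type and 112.4 and 85.9 CPM in knockout, a 1.54-fold higher mean in wild type with no overlap. Its log2 fold change was 0.61 (edgeR adjusted p = 0.0998, SE 0.20). Eif3c, which encodes a core scaffold subunit, lay the other way, at 288.7, 355.9 and 315.9 CPM against 367.1 and 566.6 CPM. Knockout 1 was only just above wild type 2, and the log2 fold change of -0.54 (edgeR adjusted p = 0.161) was -0.20 without knockout 2 and -0.82 without knockout 1. Part of the exon length of Eif3c, 5.1%, is shared with an unnamed gene of the table. Eif3k, the eIF3 gene with the highest level, had 300.5, 309.6 and 311.3 CPM against 325.2 and 359.8 CPM, without overlap but with a difference of only -0.16 (95% interval -0.53 to 0.21). Eif3e lay between 100.8 and 106.9 CPM in all 5 libraries, and Eif3a, which encodes the largest subunit, had an interval of -0.36 to 0.41. Eif3c and some other genes described here (Eif3e, Eif4b, Eif4e2, Eif4e3, Eef1d and Eef1g among them) fall outside the rule for named genes and were chosen after their values were seen.

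Of the 10 genes of the cap complex and its cofactors, 0 passed the test and 6 had a positive log2 fold change, with a median of 0.21. Those of eIF4E and of the helicase cofactors eIF4B and eIF4H read higher in every wild type library, and those of the helicase eIF4A overlapped between groups. Eif4e had 154.8, 125.8 and 151.8 CPM in wild type and 85.9 and 116.4 CPM in knockout. The groups did not overlap, and the log2 fold change was 0.52 (edgeR adjusted p = 0.179, SE 0.21), or 0.31 without knockout 1. Eif4h, which like Eif4b stimulates the helicase, had 440.6, 341.7 and 427.1 CPM against 248.1 and 260.2 CPM. This was 1.59-fold in the means, and its log2 fold change of 0.67 (edgeR adjusted p = 0.0741, SE 0.19) had the smallest p of all 56 members. Eif4b (0.51), Eif4e2 (0.48, a cap-binding relative of eIF4E) and Eif4g3 (0.33) did not overlap between groups either, so that 5 of the 10 genes had every wild type library higher, where 20.4% of all genes did. The relative Eif4e3 lay the other way, at 30.7 to 36.9 CPM against 45.3 and 38.5 CPM, a difference of -0.34 on the log2 scale (edgeR adjusted p = 0.44) that was -0.21 without knockout 1.

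Of the scaffold genes, 2 overlapped between groups, as did both helicase genes. Eif4g1 had 329.4, 352.5 and 309.1 CPM in wild type and 287.4 and 430.1 CPM in knockout, so the knockout libraries lay on either side of wild type. Eif4g2, whose product lacks the eIF4E-binding part of eIF4G, had 754.9, 574.2 and 625.5 CPM against 637.5 and 586.6 CPM, with an interval of -0.30 to 0.48. Eif4a1, the main helicase gene, had 539.0, 740.4 and 713.1 CPM against 690.1 and 699.9 CPM, with an interval of -0.47 to 0.34. Within each library, Eif4a1 stood at 3.31 to 3.96 times the level per kilobase of its paralog Eif4a2, with overlap between the groups (3.78 ± 0.180, n = 3, against 3.52 ± 0.298, n = 2, SD). Eif4a2 had 184.1, 230 and 233.3 CPM against 257.1 and 231.3 CPM, with knockout 2 inside the wild type range. Both genes host small nucleolar RNAs that overlap their exon blocks. Eif4a3, whose protein belongs to the exon junction complex and not to eIF4F, had 209.5, 233.2 and 254.4 CPM against 198.2 and 273.6 CPM.

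The inhibitors of eIF4E were measured at very different levels. Eif4ebp1 had 268 ± 30.5 CPM per kilobase in wild type (SD, n = 3), against 50.0 ± 5.53 for Eif4e itself and 6.99 ± 1.99 for Eif4ebp2. Eif4ebp1 had 291.9, 232.0 and 263.8 CPM in wild type and 180.3 and 234.1 CPM in knockout, with a log2 fold change of 0.35 (edgeR adjusted p = 0.343, SE 0.20) that was 0.17 without knockout 1 and 0.54 without knockout 2. Eif4ebp2 had 13.0, 8.70 and 15.8 CPM against 6.39 and 7.32 CPM, the largest log2 fold change of the members in the edgeR fit of all libraries (0.88, edgeR adjusted p = 0.25, SE 0.41). It was not the largest after thinning (0.61, with Eif4h at 0.66) or with either knockout library left out. In knockout 2 it rests on 23 counts, with an exact 95% Poisson interval of 4.64 to 11 CPM, which covers counting error only and reaches into the wild type range. The level ratio of Eif4e to Eif4ebp1 within a library was 0.181, 0.185 and 0.196 in wild type and 0.162 and 0.169 in knockout, without overlap. Like the other ratios given here, it was chosen after the values were seen, and no share over all gene pairs was taken. Eif4enif1, whose protein carries eIF4E to the nucleus, lay higher in knockout, at 35.2, 42.4 and 38.2 CPM against 53.1 and 48.7 CPM (edgeR adjusted p = 0.325).

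At subunit joining, Eif5, which triggers GTP hydrolysis by eIF2, had 1138.1, 1115.0 and 1111.0 CPM in wild type against 1341.5 and 1003.7 CPM in knockout. The knockout libraries again lay on either side, with an interval of -0.45 to 0.32. Eif6, which keeps the large ribosomal subunit apart from the small, had 522.0, 417.5 and 485.4 CPM against 299.3 and 436.8 CPM (log2 fold change 0.37, edgeR adjusted p = 0.328). The value was 0.12 without knockout 1 and 0.67 without knockout 2. Exon blocks of Rev1 in the table cover 15.9% of the exon length of Eif5b, and those of Spg11 cover 19% of that of Eif3j1 (35.8% and 52.7% with the neighbours' introns), so these levels may hold reads of the neighbours.

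Of the genes of eEF1, eEF2 with its kinase, and eIF5A, 0 passed the edgeR test, and their values lay on both sides. Eef2 had 4285.1, 3743.6 and 4192.9 CPM in wild type and 2761.3 and 2847.2 CPM in knockout. The groups did not overlap, with a 1.45-fold higher mean in wild type and a log2 fold change of 0.54 (edgeR adjusted p = 0.102, SE 0.17). Eef1a1 had 3752.1, 3368.2 and 3922.4 CPM against 3109.8 and 2598.4 CPM, a log2 fold change of 0.37 (edgeR adjusted p = 0.265, SE 0.18) that was 0.24 without knockout 2. Eif5a had 1712.5, 1304.2 and 1747.0 CPM against 1060.8 and 1153.5 CPM, with wild type 2 nearest to the knockout libraries (0.52, edgeR adjusted p = 0.144, SE 0.19). The RefSeq span of Gps2, introns included, covers 14.4% of the exon length of Eif5a.

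The genes of the eEF1B exchange factor lay the other way or overlapped. Eef1b2, its alpha subunit, had 176.1, 224.5 and 189.6 CPM in wild type and 270.0 and 327.3 CPM in knockout, a 1.52-fold higher mean in knockout. The groups did not overlap, and the log2 fold change was -0.60 (edgeR adjusted p = 0.0963, SE 0.19). Eef1d, the delta subunit, had 252.9, 338.2 and 279.8 CPM against 348.9 and 427.9 CPM (-0.42, edgeR adjusted p = 0.235, and -0.27 without knockout 2). Eef1g, the gamma subunit, had 306.5, 327.4 and 319.4 CPM against 283.3 and 324.8 CPM, and its interval was -0.31 to 0.44. The eEF2 kinase gene Eef2k had 13.6, 12.4 and 17.7 CPM against 18.7 and 2.86 CPM, and 9 counts in knockout 2. Its log2 fold change of 0.34 became -0.36 without knockout 2. It was 2.35 without knockout 1 and 0.17 with wild type 3 left out, so knockout 2 sets its direction.

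**Figure D3:**
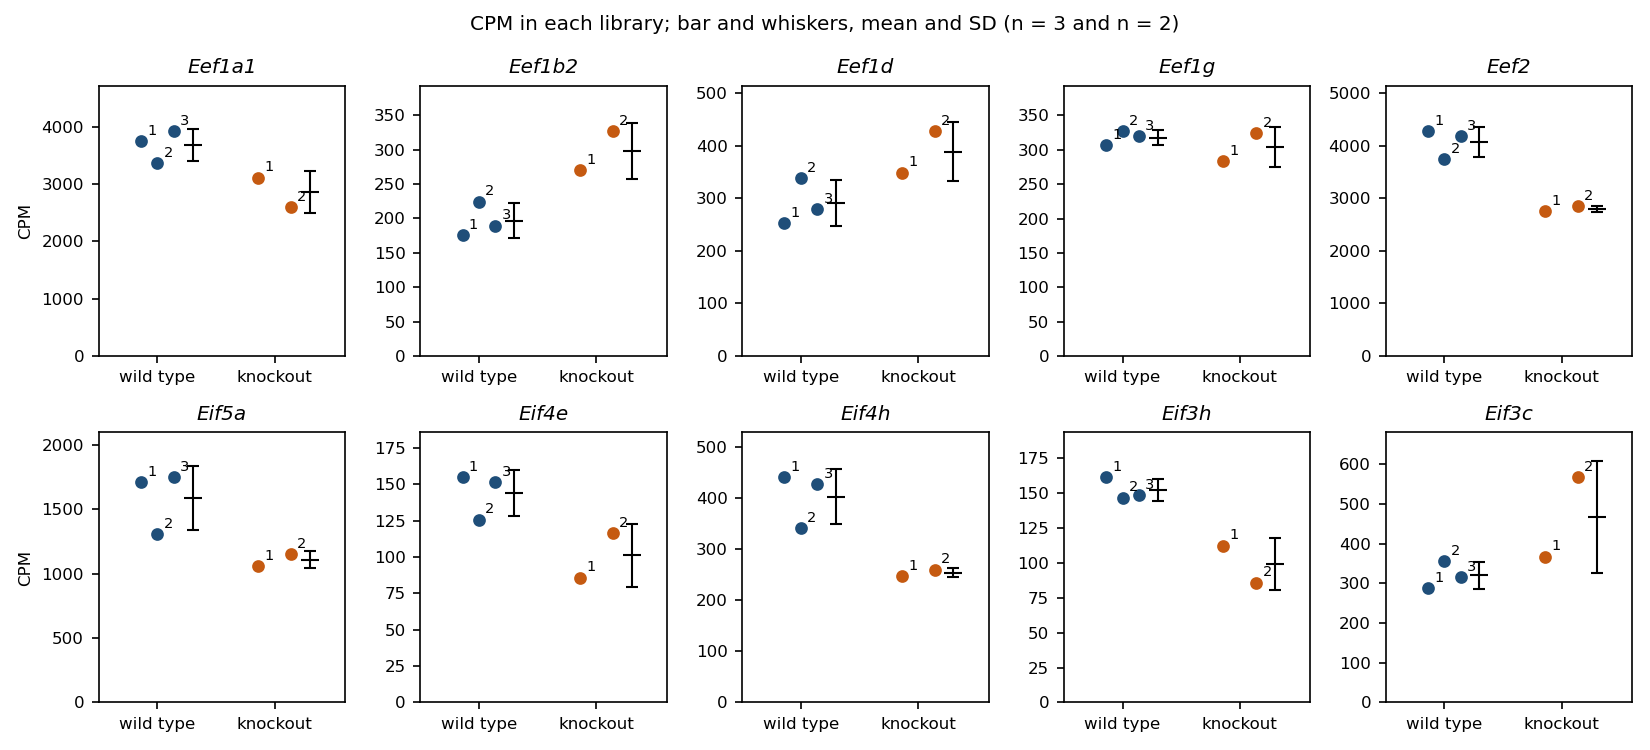
CPM of 10 members in each library (points, numbered by replicate; n = 3 wild type and n = 2 knockout), with the mean and SD of each group beside them; each axis starts at 0. Eef2 lies between 3743.6 and 4285.1 CPM in wild type and at 2761.3 and 2847.2 CPM in knockout, while Eef1b2 is at 270.0 and 327.3 CPM in knockout and at most 224.5 CPM in wild type.

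Ratios of levels within a library do not depend on the scaling between libraries. They were chosen after the values were seen and are given as a description. Eef1a1 stood at 21.6, 15.2 and 21.0 times the level per kilobase of Eef1b2 in wild type 1 to 3, and at 11.7 and 8.06 times in knockout 1 and 2. Eef2 stood at 19.9, 13.6 and 18.1 times against 8.36 and 7.11 times. The ratio of Eif3h to Eif3c was 1.51, 1.11 and 1.27 against 0.827 and 0.409. These 3 ratios followed the order of library depth over all 5 libraries, wild type 2 being the shallowest of its group. The ratio of Eif5 to Eif1 did not, and lay between 0.227 and 0.246 in wild type and at 0.267 and 0.213 in knockout.

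In each direction 3 members followed the order of library depth, not far from the shares over all genes. Both knockout libraries are the shallowest, so only genes without overlap between the groups can follow that order. The CPM of Eif3h, Eif4b and Eif1a was higher the deeper the library, in strict order over all 5, 5.36% of members against 3.33% of all genes, and that of Eef1b2, Eef1d and Eif3c was lower the deeper the library, 5.36% against 3.25%. With every library thinned to 3091302 counts, the total of knockout 2, the log2 fold change was -0.63 for Eef1b2, 0.64 for Eif3h, 0.53 for Eef2 and 0.66 for Eif4h. The unthinned values were -0.60, 0.61, 0.54 and 0.67. Some low transcripts moved more, Eif4ebp2 from 0.88 to 0.61 and Eif2s3x from 0.46 to 0, but Eef2k, the lowest, went only from 0.34 to 0.39. The thinning was a single random draw, so these shifts hold its noise. Thinning evens out the number of counts and not any other property of the libraries.

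**Figure D4:**
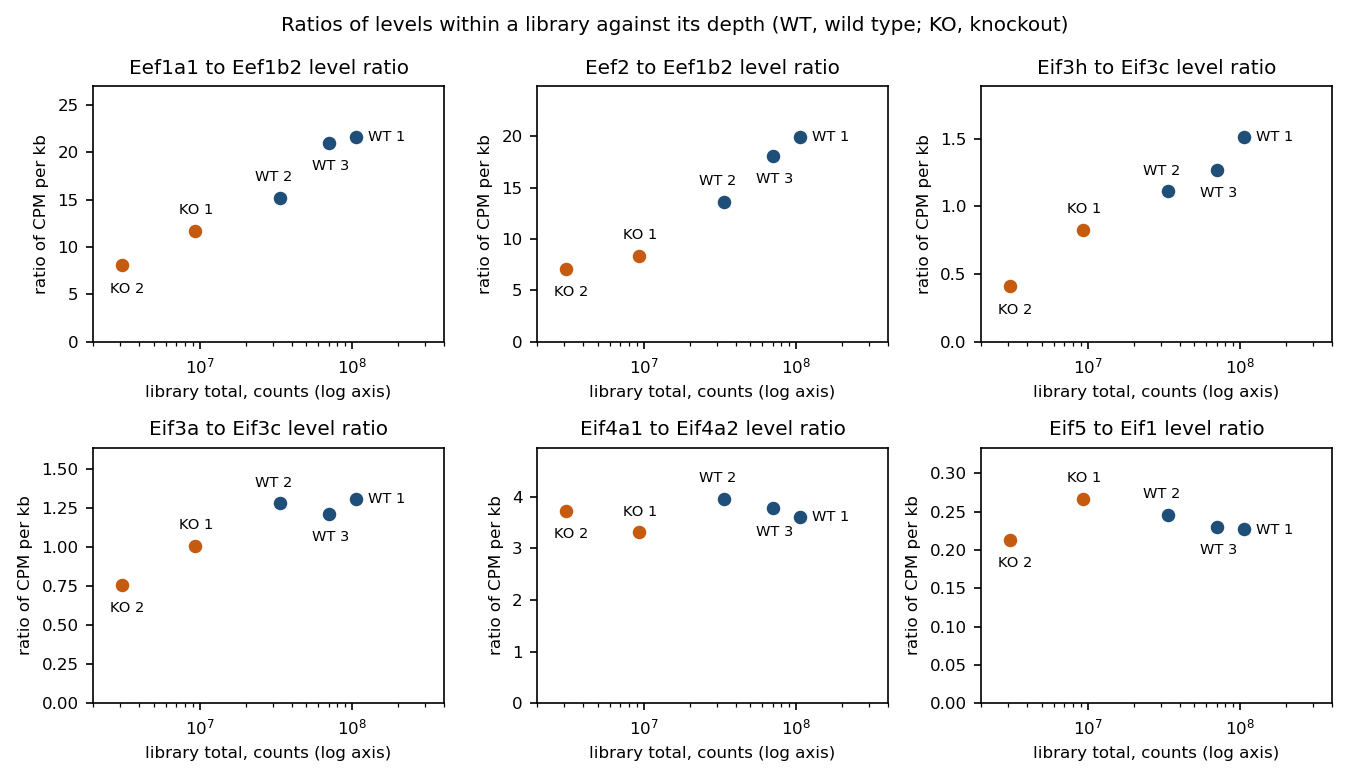
Ratio of levels (CPM per kilobase) of 6 gene pairs within each library against the library total (log axis), with wild type in blue and knockout in orange. The Eef1a1 to Eef1b2 ratio runs from 8.06 in the shallowest library to 21.6 in the deepest, while the Eif4a1 to Eif4a2 ratio stays between 3.31 and 3.96.

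Genes that act on these factors or beside them were grouped by role, with 2.05% of all genes called as the background. Among 10 genes of eIF2 phosphorylation and its targets, 1 was higher in wild type, 0 in knockout and 9 passed neither way. The called gene was Ppp1r15b, which directs a phosphatase to eIF2 alpha. It had 153.6, 86.6 and 126.5 CPM in wild type and 52.0 and 62.7 CPM in knockout, a 2.13-fold difference (log2 fold change 1.10, edgeR adjusted p = 0.0410, SE 0.25). The call was lost with limma-voom and without wild type 1, wild type 3, knockout 1 or knockout 2, with an adjusted p up to 0.215, while the log2 fold change lay between 0.90 and 1.23 in those fits. Eif2ak4, the amino acid sensing kinase GCN2, lay the other way at 24.8, 54.0 and 39.0 CPM against 85.4 and 81.1 CPM (-1.09, edgeR adjusted p = 0.0554). Atf4 and Eif2ak4 were singled out after their values were seen. Atf4, whose messenger is translated when eIF2 is phosphorylated, lay between 694.7 and 882.8 CPM against 824.1 and 696.0 CPM.

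Of 14 genes of mTORC1 and cap-binding control, 1 was higher in wild type and 13 passed neither way. It was Akt1s1, which encodes the mTORC1 inhibitor PRAS40, at 31.6, 24.6 and 31.5 CPM against 13.6 and 7.32 CPM, a 2.79-fold difference (1.43, edgeR adjusted p = 0.0424, SE 0.33). This call was lost with limma-voom, after thinning, and without wild type 1, wild type 3 or knockout 2, with an adjusted p up to 0.298, while the log2 fold change was 1.38 with limma-voom, 1.30 after thinning, 1.37 without wild type 1 or wild type 3 and 1.10 without knockout 2. Of the other lists, 0 of 6 poly(A)-binding genes, 0 of 8 release and recycling genes, 0 of 8 helicase genes, 0 of 13 modifying enzymes and 0 of 22 aminoacyl-tRNA synthetase genes passed. The medians of these lists ran from -0.15 for the synthetases to 0.36 for the poly(A)-binding genes, and those of the eIF2 and mTORC1 lists were -0.19 and -0.09, against 0 over all genes. The gene with the smallest p in each is given here. Paip2b, an inhibitor of the poly(A)-binding protein, was at 0.68 (edgeR adjusted p = 0.238) and Abcf1, a partner of eIF2, at -0.31 (0.439). The release factor gene Gspt1 had a log2 fold change of 0.75 (edgeR adjusted p = 0.0881). Dohh, the hydroxylase that completes the hypusine of eIF5A, was at 0.56 (0.172), and the glutaminyl-tRNA synthetase gene Qars at -0.92 (0.0709). Of 9 factors known to carry the pyrimidine tract, all of them members, 0 passed, and their log2 fold changes ran from -0.60 to 0.61 with a median of 0.06.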

How the data were processed

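The authors deposited raw counts for 5 libraries with a length for each gene. The submitters' processing notes name STAR, Trim Galore, edgeR, Subread and its featureCounts, and the build mm10. Tool versions and the strand setting of counting: not given in the sources used here. Per the labels, cDNA was made from 100 pg of RNA by oligo(dT) priming and read in 101 bp pairs. The third-highest CPM per gene was never below 3.02, so low genes were absent from the table.

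Counts were analysed in R 4.3.3 with edgeR 4.0.16 over all 11194 genes (filterByExpr, which removed 0 genes, TMM, estimateDisp, glmQLFit, two-sided quasi-likelihood F-test, Benjamini-Hochberg over all genes, threshold 0.05). The test had 14 degrees of freedom, 11 of them from the prior. CPM uses TMM-scaled totals, and errors beside means are SDs. Intervals on single counts cover counting error only. Standard errors come from the coefficient and its F statistic. DESeq2 1.42.0, limma 3.58.1 (voom), other scalings, a filter of 10 counts, a replicate block, thinning and leaving out each library were alternatives. The fits were tested on simulated data. Replicates differed by more than sampling noise (chi-square per degree of freedom 17.7 to 258).

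The members and lists were chosen with earlier results of these data known. Named members were those called, the smallest p and the highest level in each complex, and 16 set symbols; of the other lists, the genes called and the smallest p.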

Additional observations from a re-analysis of the deposited data

How the results depend on the processing

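The count of members called as higher in wild type, 0, was 3 with DESeq2 and between 0 and 1 with each library left out, and that higher in knockout, 0, was 1 with DESeq2 and 0 to 0 with each library left out; both were 0 under the other alternatives. The member median log2 fold change of 0.02 was -0.02 with total counts, 0.06 with the replicate block, and between -0.02 and 0.13 with each library left out. Among named members near 0, the sign turned for Eif4a3 (0 with at least 10 counts in every library, 0.04 with limma-voom) and Eif2s2 (0 with the replicate block). With a library left out, it turned for Eef2k (-0.36 to 2.35), Eif1 (-0.07 to 0.02), Eif4a1 (-0.15 to 0.06), Eif4a3 (-0.24 to 0.23), Eif4g1 (-0.38 to 0.20), Eif4g2 (-0.04 to 0.18) and Eif5 (-0.26 to 0.16). Without a knockout library, the remaining knockout library is assumed to vary like the other group. The cause of these changes was not tested. 37 of 56 members kept their direction in all 14 fits. The replicate numbers in the titles are not known to pair the libraries. Deviations of same-numbered libraries from their group means correlated at 0.0487 and 0.0381 across genes. With 2 knockout libraries these deviations mirror each other, so the correlations cannot decide whether the numbers pair. With the replicate block, 288 and 324 genes were called, against 118 and 112; 21 and 40 were without wild type 1, 11 and 23 without wild type 3, and 8 and 14 with limma-voom. In knockout 2, 1 member (Eef2k) had under 10 counts; a count of 0 there allows up to 0.970 CPM, from 3 counts.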

Other observations

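The 2 genes that RefSeq names Eef1akmt2 and Eef1aknmt, both methyltransferases of eEF1A, stand in the table under older symbols. Mettl10 had 14, 12.4 and 15.7 CPM in wild type and 13.3 and 7 CPM in knockout (log2 fold change 0.42, 95% interval -0.38 to 1.23). Mettl13 had 14.2, 13.3 and 17.8 CPM against 6.07 and 25.8 CPM, so the knockout libraries lay on either side of wild type (-0.01, SE 0.47). Eef1akmt1, the member of the same kind, had 13.0, 14.4 and 17.2 CPM against 9.84 and 13.7 CPM.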
